A study of Mus musculus with 2 samples.

Results

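The 10 mouse MHC class II genes described here are H2-Aa, H2-Ab1 and H2-Eb1, which encode the classical chains, Cd74, which encodes the invariant chain, H2-DMa, H2-DMb1 and H2-DMb2, which encode the peptide editor DM, H2-Oa and H2-Ob, which encode its inhibitor DO, and Ciita, which encodes the class II transactivator. They were chosen by symbol, and all 10 were found among the 26078 genes of the count matrices. Liver macrophages were prepared from 2 C57BL/6J mice (the strain is also written C57BL/6) aged 7 to 10 weeks. One was injected with saline and the other with Ter119, an antibody to the surface of red blood cells, given subcutaneously as 35 ug once and then as 10 daily injections of 10 ug. Livers were taken at 24 after the last injection, a time given without a unit, and digested cells were enriched with F4/80 and CD11b beads that carry anti-rat IgG, labelled with hashtag antibodies, pooled in equal numbers and sequenced as droplet single-cell libraries that count unique molecular identifiers (UMIs). By its title, the study concerns how red cell uptake reprograms Kupffer cells, which are macrophages that reside in liver sinusoids.

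MHC class II molecules present peptides from endocytosed protein to CD4 T cells. The alpha and beta chains assemble with the invariant chain, which blocks the groove and guides the complex to endosomes, where cathepsins cut it down and DM swaps the remaining fragment for peptide. DO holds DM back and is known from B cells and some dendritic cells. Ciita is the non-DNA-binding coactivator that turns on the genes of the classical chains, the invariant chain and DM. It does so constitutively in dendritic and B cells and after interferon gamma in macrophages and endothelium. In C57BL/6 mice the gene for the E alpha chain is defective, so H2-Eb1 transcript does not lead to a surface E molecule.

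With 1 mouse and 1 library in each group there was no replicate and no test. The treatment cannot be told apart from the mouse or its library, and the 95% intervals given here allow for counting error alone. The saline library kept 11572 of 18354 barcodes after cell filters, with a median of 6239 UMIs, and the Ter119 library kept 13846 of 25760, with a median of 2803. A total of 133 barcode sequences occurred in both. Cells were assigned to types by gates on the summed UMIs of marker genes, none of them a class II gene. The Kupffer gate held 9742 saline cells (84.2%) and 7568 Ter119 cells (54.7%). The monocyte gate held 246 and 730 cells, the dendritic gate 112 and 219, the B cell gate 64 and 49, and the endothelial gate 587 and 997. No gate of a library had a marker of its own list at 0 UMIs, though among the 10 leading genes of the dendritic gate only 1 in saline (Cd209a) and 3 in Ter119 were of its list, with class II genes among the others. The 12 Kupffer markers together had a median of 363 UMIs per 10000 in saline cells of that gate and 236 in Ter119. In Ter119, 1117 Kupffer-gate cells lay within 20% above the gate's limit of 150 per 10000, against 118 in saline. Neutrophils, T or NK cells and erythroid cells, which should carry little or no class II, were gated as reference cells (192, 24 and 0 saline cells and 375, 118 and 870 Ter119 cells).

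The classical chains and Cd74 were highest in the dendritic gate of both libraries and lowest in the endothelial gate. H2-Aa, the A alpha chain, stood at 10440 CPM (the gene's share of the gate's UMIs, scaled to counts per 1000000, interval 10250 to 10630) in saline dendritic cells and at 7817 (7601 to 8038) in Ter119. Then came saline B cells at 3730 (3530 to 3938) and saline monocytes at 3600 (3513 to 3688), whose intervals overlapped. Ter119 monocytes at 2232 and saline Kupffer cells at 2193 overlapped too, as did saline Kupffer cells and Ter119 B cells at 2009 (1758 to 2286). Ter119 Kupffer cells followed at 308 (302 to 314), and endothelial cells were lowest at 216 in saline and 111 in Ter119. Cd74 ran from 21350 CPM in saline dendritic cells to 293 in Ter119 endothelial cells. In Kupffer cells it was 4550 in saline and 983 in Ter119. H2-Ab1, the A beta chain, ran from 9270 in saline dendritic cells to 87.7 in Ter119 endothelial cells, and H2-Eb1, the E beta chain, from 8068 to 66.7. Ter119 Kupffer cells ranked below all dendritic, monocyte and B cells for each of these 4 genes. In this preparation, fewer transcripts per cell and a larger total of other RNA cannot be told apart, since CPM is a share.

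Some of the other members ordered the antigen-presenting gates otherwise than the chains did. H2-DMa and H2-DMb1, the alpha and main beta chains of DM, were highest in saline dendritic cells (846 and 615 CPM). H2-DMb1 was more abundant in saline Kupffer cells (201, interval 198 to 204) than in saline B cells (115, 82.0 to 156). H2-DMb2, the second DM beta gene, was highest in B cells, with 496 CPM in saline B cells (425 to 576) and 332 in Ter119 B cells, 310 and 191 in dendritic cells, 26.9 and 9.13 in monocytes, and 7.41 and 3.44 in Kupffer cells. The count of H2-DMb2 over that of H2-DMb1 was accordingly 4.33 (3.05 to 6.26) in saline B cells and 3.80 (1.86 to 8.55) in Ter119 B cells. It was 0.504 and 0.347 in dendritic cells and 0.0369 and 0.0342 in Kupffer cells. The last 400 bases of the longest transcripts of these neighbouring genes aligned over 235 bases with 88.1% identity, so reads from the aligned part could have been split between them by the counting.

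H2-Oa and H2-Ob, the chains of DO, were highest in dendritic and B cells among the 5 gates. H2-Oa stood at 343 CPM in saline and 191 in Ter119 dendritic cells and at 235 and 96.1 in B cells. It was 20.8 and 16.3 in monocytes and 1.56 and 1.33 in Kupffer cells. H2-Ob was 350 and 245 CPM in B cells, 214 and 101 in dendritic cells, 8.78 and 7.18 in monocytes, and 3.03 and 1.23 in Kupffer cells. Ciita was 151 (129 to 176) and 125 (98.9 to 156) CPM in dendritic cells. It was 74.6 and 17.5 in B cells, 59.2 and 37.2 in monocytes, 8.51 and 4.53 in Kupffer cells and under 1 in endothelial cells (0.898 and 0.654). Saline Kupffer cells, with H2-Aa near that of Ter119 monocytes, thus had less Ciita (8.51, 7.85 to 9.20) than those monocytes (37.2, 28.2 to 48.2). H2-Eb2, a further class II beta locus that is not among the 10, was seen at 51.0 and 33.2 CPM in dendritic cells and at 0.425 and 0.273 in Kupffer cells.

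**Figure D1:**
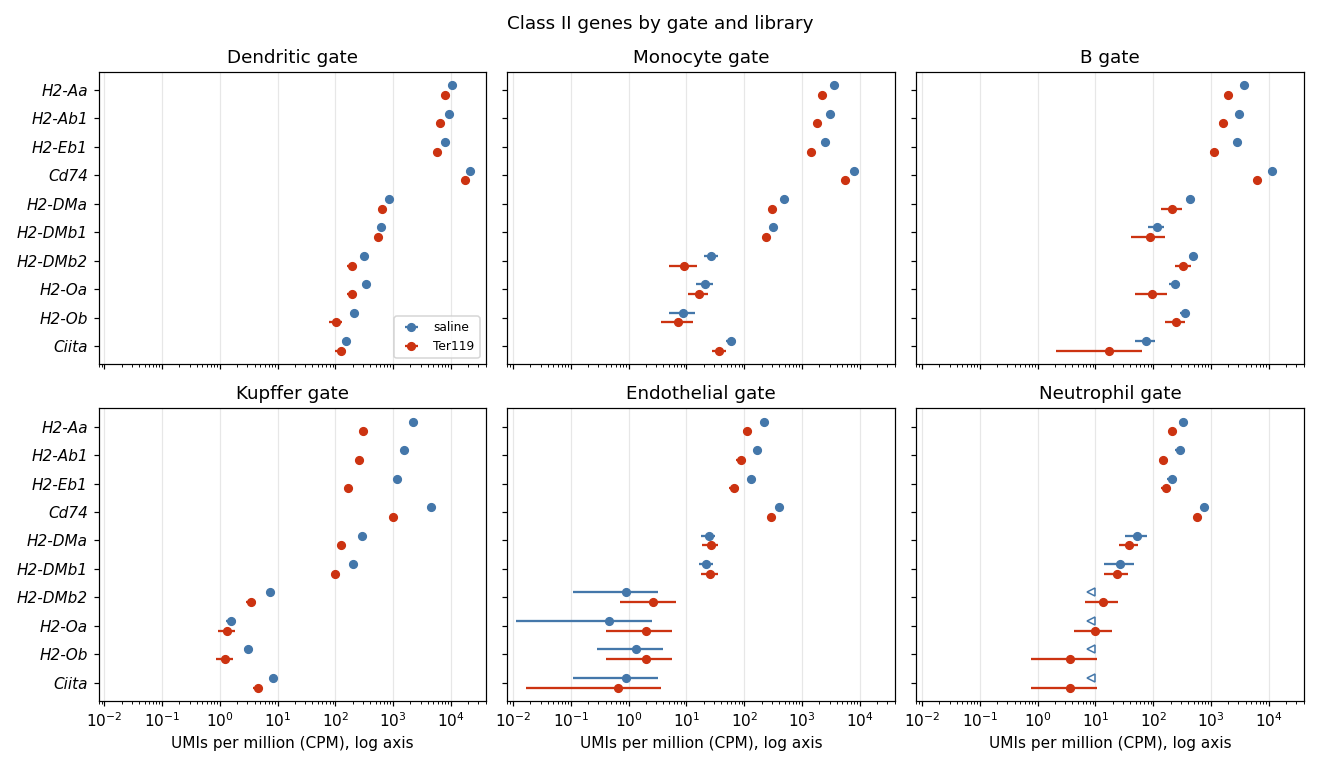
Each panel is 1 gate and each row 1 gene, the x axis gives CPM on a log axis, blue points are the saline and red points the Ter119 library, and bars are 95% Poisson intervals of the count. Open triangles mark the upper limit of a gene with no UMI. The gap between the libraries is widest for the classical chains and Cd74 in the Kupffer gate, where H2-Aa is 2193 CPM in saline and 308 in Ter119.

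Between the libraries, the Kupffer gate showed the largest differences of the chains and Cd74 among the 5 gates. H2-Aa was 7.13 times lower in Ter119 (interval 6.98 to 7.28), H2-Eb1 6.98 times (6.78 to 7.19; 1152 and 165 CPM) and H2-Ab1 6.11 times (5.96 to 6.25; 1556 and 255 CPM). Cd74 was 4.63 times lower (4.58 to 4.69). H2-DMa was 2.28 times lower (2.21 to 2.37; 289 and 127 CPM) and H2-DMb1 1.999 times (1.92 to 2.08; 201 and 101 CPM). Of the 10 genes, 6 reached 20 CPM in either library, and 5 of these were at least 2-fold lower in Ter119 and 0 higher. H2-DMb1, at a ratio of 0.5004, missed the limit by less than its interval. Of all 6425 genes at or above 20 CPM, 9.90% were lower by this rule and 3.22% higher. The median log2 ratio was -2.41 over the 6 members and -0.29 over all genes. TMM scaling moved the median of all genes to 0.03, and under it 4 of the 6 members and 5.14% of all genes were at least 2-fold lower. Relative to the median of all genes, the log2 ratios were -2.55 for H2-Aa, -2.52 for H2-Eb1, -2.32 for H2-Ab1 and -1.92 for Cd74, but -0.90 for H2-DMa, which is within 2-fold. The 4 members under 20 CPM were Ciita at a ratio of 0.533 (0.439 to 0.644), H2-DMb2 at 0.465 (0.372 to 0.576), H2-Ob at 0.405 (0.277 to 0.579) and H2-Oa at 0.851 (0.576 to 1.24), the last with an interval that includes 1.

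Some markers of Kupffer cells themselves also differed in this gate, in both directions. Of the 12 that define it, 4 were at least 2-fold lower in Ter119 and 2 at least 2-fold higher. Among all genes of the gate, 9.90% were lower and 3.22% higher by this rule. The remaining markers had ratios from 0.539 (C1qa) to 0.863 (Slc40a1). The summed level of the 12 was 37640 CPM in saline and 24500 in Ter119. Timd4, a receptor for phosphatidylserine on long-lived Kupffer cells, stood at 576 and 25.9 CPM (ratio 0.0449, 0.0418 to 0.0483). Clec4f, a Kupffer lectin, stood at 5298 and 1012 CPM (0.191, 0.189 to 0.193), Vsig4, a complement receptor, at 3178 and 643, and Folr2, a folate receptor, at 1200 and 189. Marco, a scavenger receptor, was higher at 853 and 4287 CPM, and so was Spic, a transcription factor of red pulp and heme-handling macrophages, at 129 and 468. The neutrophil gate held Clec4f at 794 and 168 CPM and Timd4 at 106 and 1.23, although these cells should lack them. These levels were computed after the data had been seen, and the part of a different makeup of Kupffer-gate cells in the class II difference was not tested.

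The genes thus differed unequally inside the family. The count of H2-Aa over that of H2-DMa was 7.59 (7.48 to 7.70) in saline Kupffer cells and 2.43 (2.34 to 2.53) in Ter119 Kupffer cells. The same ratio was 7.28 and 7.52 in monocytes, 12.4 and 12.2 in dendritic cells, 8.67 and 9.58 in B cells and 6.30 and 5.68 in neutrophils, each pair with overlapping intervals. In endothelial cells it was 8.93 (6.73 to 12.1) and 4.25 (3.00 to 6.16). The count of Cd74 over that of H2-DMa in Kupffer cells was 15.8 in saline and 7.77 in Ter119. H2-Aa over Cd74 was 0.482 in saline and 0.313 in Ter119 Kupffer cells. This ratio was not lower in Kupffer cells alone. It was 0.458 and 0.400 in monocytes, 0.489 and 0.4395 in dendritic cells and 0.531 and 0.380 in endothelial cells. In B cells it was nearly equal, at 0.326 and 0.3235. In Kupffer cells the chains therefore stood lower in Ter119 relative to the invariant chain, and the invariant chain relative to DM. H2-DMa overlaps another gene on its strand (CR974462.3) and Brd2 on the other strand in the annotation, and the counting of reads that such genes share is a step the sources do not describe.

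**Figure D2:**
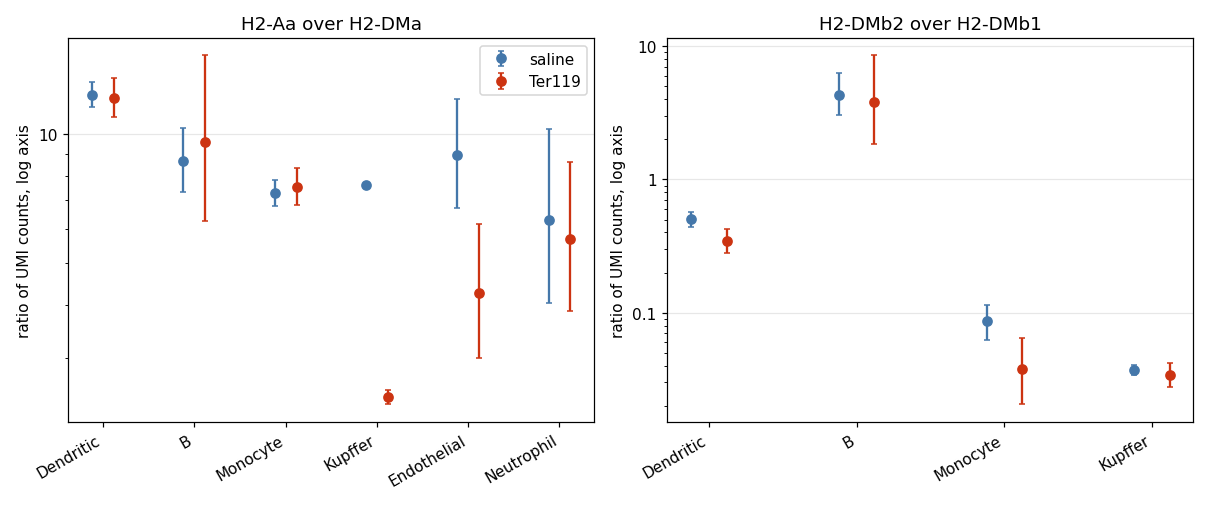
The y axes give the ratio of the UMI counts of 2 genes on a log axis for each gate (x axis), with saline in blue, Ter119 in red and 95% exact intervals as bars. H2-Aa over H2-DMa falls to 2.43 in the Ter119 Kupffer gate against 7.59 in saline, and H2-DMb2 over H2-DMb1 is 4.33 and 3.80 in the B gate against under 0.04 in the Kupffer gate.

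Single Kupffer cells showed the same difference after every cell had been thinned to 1000 UMIs. A UMI of H2-Aa, H2-Ab1 or H2-Eb1 was found in 93.7% of the saline cells (93.2 to 94.1%) but in 34.1% of those from Ter119 (33.1 to 35.2%), and without thinning in 99.4% and 59.6%. Droplets also carry free RNA, and the thinned share in neutrophils was 52.1% (44.8 to 59.3%) in saline and 12.5% (9.36 to 16.3%) in Ter119, with median depths of 2228 and 1783 UMIs against 6816 and 3776 in Kupffer cells. In T or NK cells it was 37.5% (18.8 to 59.4%) and 27.1% (19.4 to 36.1%), and in Ter119 erythroid cells 28.7% (25.8 to 31.9%). The Ter119 Kupffer share thus lay above those of neutrophils and erythroid cells and within the interval of T or NK cells. By level the order was another: H2-Aa in Ter119 was 308 CPM in Kupffer, 804 in erythroid and 1162 in T or NK cells. Thinned cells with 10 or more UMIs of the 10 genes made up 2.89%, 12.8% and 14.4% of these Ter119 gates. Summed over cells, H2-Aa in Kupffer cells was 6.72 times the neutrophil level in saline (5.71 to 7.97) and 1.42 times in Ter119 (1.23 to 1.66). H2-Eb1 was 5.33 times and 1.003 times (0.845 to 1.2), and H2-DMa 5.58 times and 3.32 times (2.34 to 4.90). In Ter119 neutrophils, 7 of 375 cells had 10 or more class II UMIs, and the tenth of cells with most held 76.5% of these UMIs. The levels over neutrophils, and the marker shares given next, were computed after the data had been seen.

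The difference covered most of the distribution. Over all 10 genes, the median thinned Kupffer cell had 8 UMIs in saline and 1 in Ter119. Cells with 10 or more made up 39.5% (38.5 to 40.5%) in saline and 2.89% (2.53 to 3.30%) in Ter119. Cells with none made up 0.985% and 37.2%. The tenth of cells with most class II UMIs held 27.3% of them in saline and 49.3% in Ter119. The 219 Ter119 cells with 10 or more had a median of 207 Kupffer marker UMIs per 10000 against 238 in the 2812 cells with none. Their mean share of monocyte markers was 7.57 against 3.35 per 10000, that of dendritic markers 2.36 against 1.33, and that of erythroid markers 317 against 639. Saline Kupffer-gate cells with 10 or more and with none had mean monocyte shares of 8.34 and 7.70 and dendritic shares of 2.55 and 2.62. The part of cell doublets or of cells near the gate's limit in the 219 Ter119 cells was not tested. With the gate's limit raised to 250 per 10000, the Ter119 share with a classical chain was 32.3%. A lower limit was not run. The 2618 Ter119 cells in no gate had a median of 113 Kupffer marker UMIs per 10000. Their summed level of the 10 genes was 7928 CPM, against 1948 in the Ter119 Kupffer gate. In saline these levels were 16030 and 9962. The part of cells under the limit in the Kupffer difference was not tested.

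**Figure D3:**
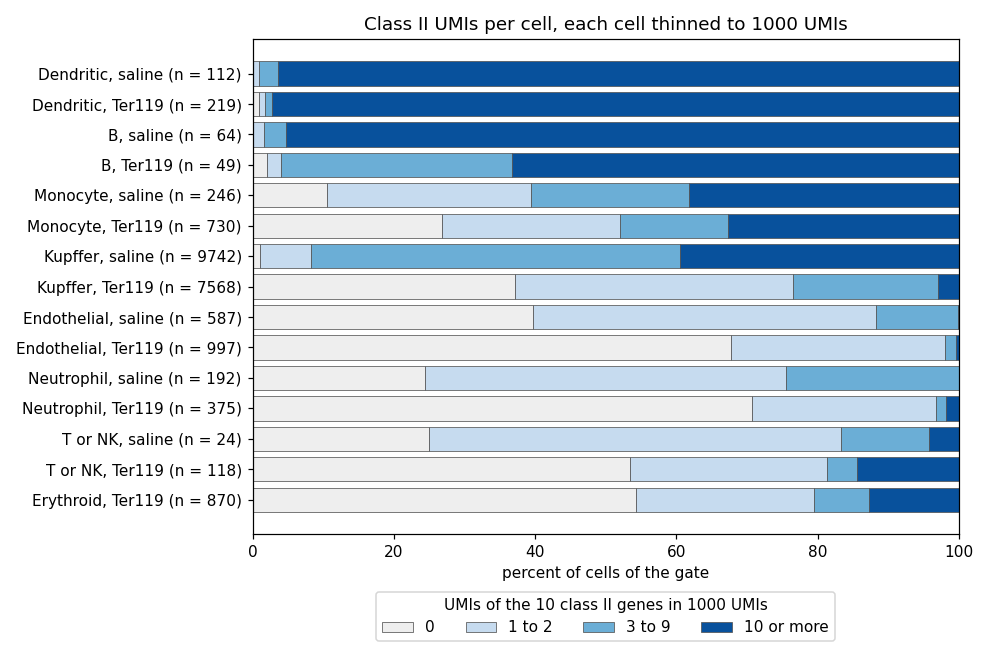
Each bar is 1 gate of 1 library (n is its number of cells) and shows the percent of cells with 0, 1 to 2, 3 to 9 or 10 or more UMIs of the 10 class II genes after thinning to 1000 UMIs. Cells with 10 or more are 39.5% of the saline and 2.89% of the Ter119 Kupffer gate, and 96.4% and 97.3% of the dendritic gate.

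Inside the Ter119 Kupffer gate, every subset cut by genes outside the family stayed far below the saline level of H2-Aa (2193 CPM). Cells with a UMI of Gpnmb, a gene of lipid-associated and phagocytic macrophages, after thinning (2330 cells) had H2-Aa at 336 CPM (313 to 360), against 301 (286 to 316) in the 5238 without. H2-DMa was 138 (123 to 154) and 125 (116 to 135). Cells with and without a UMI of Cxcl10, an interferon-induced chemokine, had H2-Aa at 295 (213 to 397) and 312 (299 to 325) in Ter119. In saline the values were 2247 (2099 to 2403) and 2175 (2146 to 2205). Hemoglobin and other erythroid UMIs had a median of 119 per 10000 in the Ter119 Kupffer gate, 52.9 in dendritic cells, 85.1 in neutrophils, 94.4 in T or NK cells and 105 in B cells of that library, and 0 in these gates of saline. H2-Aa was 258 CPM (249 to 267) in the 2706 cells with 500 or more erythroid UMIs per 10000 and 340 (332 to 349) in the 4862 with fewer. With erythroid UMIs left out of the total, these levels were 309 and 343. The Cxcl10 and erythroid subsets were added after the data had been seen.

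The 5 promoters with both motifs described here are shown because class II genes are known to share a conserved module, in which a W/S and X box bind the RFX complex and a downstream Y box, an inverted CCAAT element, binds NF-Y. RefSeq windows of 300 bases (250 before to 50 after a start, GRCm38.p6) were matched for 7 of the 10 genes, with 8 windows in all, as H2-DMa had 2. The search used GATTGG, the letters of the Y box, on both strands, and GNAAC followed by GATTGG after 10 to 40 bases, also on both strands. GATTGG was found in 7 of the 8 windows and in 16.1% of all 32851 windows, and the pair in 5 of 8 and in 1.69%. The pair and its spacing were picked after reading these promoters, so these shares describe them and carry no weight as support. A match is no evidence of binding. In the stretches below, 5′ to 3′ on the coding strand, the capitals mark the 2 motifs.
H2-Aa, chr17:34287852-34287919, minus strand: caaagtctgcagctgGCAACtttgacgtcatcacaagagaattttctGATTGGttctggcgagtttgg
H2-Eb1, chr17:34305761-34305827, plus strand: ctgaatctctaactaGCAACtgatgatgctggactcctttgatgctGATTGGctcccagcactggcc
H2-DMb1, chr17:34153082-34153149, plus strand: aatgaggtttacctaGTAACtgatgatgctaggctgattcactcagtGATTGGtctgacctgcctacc
H2-Oa, chr17:34092288-34092355, plus strand: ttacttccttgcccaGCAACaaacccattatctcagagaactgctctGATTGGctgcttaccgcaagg
H2-Ob, chr17:34238803-34238867, plus strand: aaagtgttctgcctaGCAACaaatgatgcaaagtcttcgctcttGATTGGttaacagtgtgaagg

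The motifs were 24 bases apart in H2-Ob, 26 in H2-Eb1 and 27 in H2-Aa, H2-DMb1 and H2-Oa. GATTGG began 44 bases before the start in H2-Oa, 49 in H2-Aa, 58 in H2-Ob, 60 in H2-Eb1 and 62 in H2-DMb1. H2-Oa and H2-Ob carry GCAAC and GATTGG, as do H2-Aa and H2-Eb1. Any link between these motifs and the levels across gates was not tested. H2-DMb2 and 1 of the H2-DMa windows held GATTGG without the pair. All 8 windows lie on chromosome 17, within the class II region.

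Of 40 other genes of the class II pathway, 38 were found and 26 reached 20 CPM in the Kupffer gate. Of these, 6 passed the 2-fold limit as lower and 1 as higher, with a median log2 ratio of -0.62, beside 9.90% lower, 3.22% higher and a median of -0.29 for all genes. Under TMM scaling 3 were at least 2-fold lower, beside 5.14% of all genes. Ifi30 and the E alpha pseudogene were not analysed here. Both vesicle transmembrane genes were among the lowest: Tmem176b was 15.6 times lower (14.3 to 17.0; 275 and 17.6 CPM) and Tmem176a 9.33 times (8.47 to 10.3; 137 and 14.6 CPM). Both proteins sit in endosomal membranes of antigen-presenting cells. Of 3 genes for costimulation and ligands, Cd40, the receptor for T cell help, was 4.83 times lower (29.0 and 6.00 CPM), while Cd86, a costimulatory ligand, had a ratio of 0.687 (161 and 111 CPM).

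In the interferon gamma signal, Irf1 and Ifngr1 were at least 2-fold lower. Irf1, a transcription factor induced by interferon, was 2.33 times lower (2.22 to 2.44; 157 and 67.5 CPM). Ifngr1, the receptor chain, was 2.01 times lower (1.96 to 2.06; 533 and 265 CPM). Relative to the median of all genes, their log2 ratios were -0.93 and -0.72, which is within 2-fold. Of the 12 transcription factors listed, 5 reached 20 CPM and none of these reached 2-fold, with ratios from 0.629 to 1.02. Among all genes of the gate, 9.90% were lower and 3.22% higher by this rule. At these shares, no result is read from a count of 0 among so few genes. Below 20 CPM, Rfx5, a subunit of the RFX complex, stood at 15.5 and 7.5 CPM (ratio 0.484, 0.417 to 0.560). Irf4, a factor of B cells and of some dendritic cells, stood at 15.04 and 3.10 CPM (0.206, 0.165 to 0.256), and was named after its values were seen. The 6 endosomal enzymes ran the other way from the chains in part. Ctsd, cathepsin D, was 2.43 times higher (2.41 to 2.45; 1749 and 4252 CPM) and Ctsb, cathepsin B, 1.48 times (6684 and 9859 CPM). Ctss, the cathepsin that trims the invariant chain, had a ratio of 0.596 (2771 and 1651 CPM). None of the 3 turnover genes reached 2-fold (0.552 to 0.804), and again no result is read from so few genes.

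**Figure D4:**
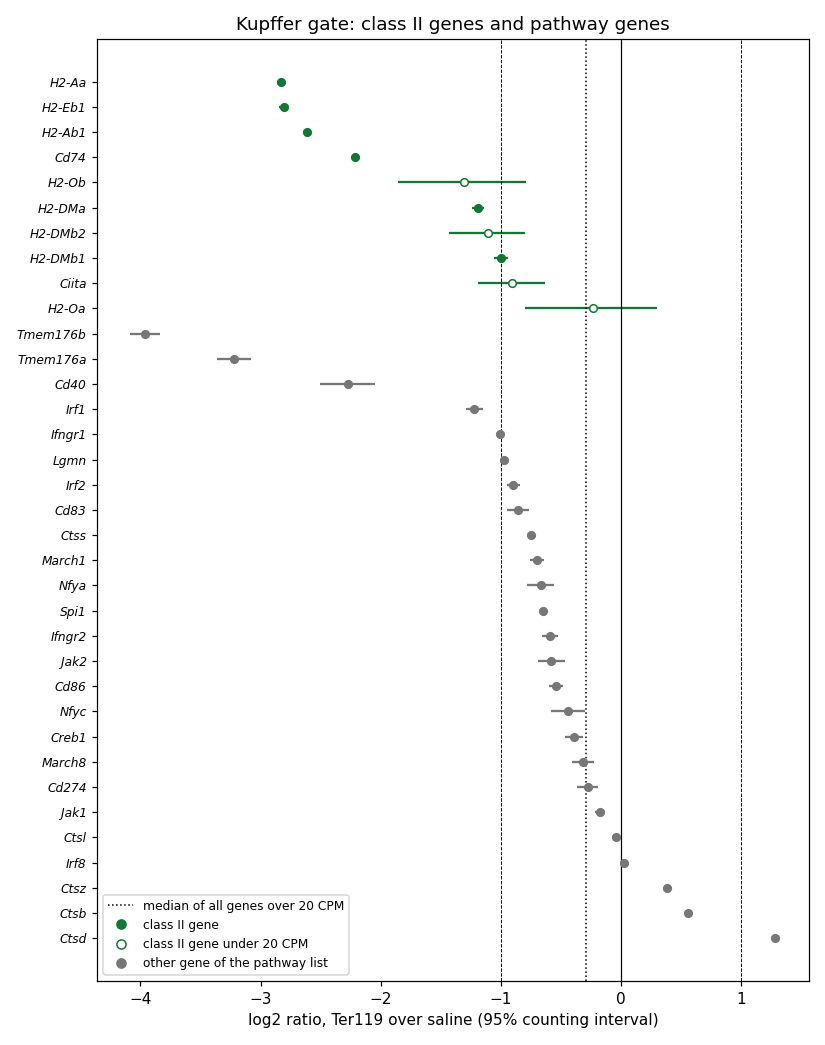
The x axis gives the log2 ratio of CPM, Ter119 over saline, in the Kupffer gate with 95% counting intervals, and each row is a gene: class II genes in green (open under 20 CPM) and other pathway genes in grey. Dashed lines mark 2-fold and the dotted line the median of all genes, -0.29. The 3 classical chains lie between -2.83 and -2.61, and of the grey points only Tmem176b (-3.96) and Tmem176a (-3.22) lie lower.

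In monocytes the members differed less. All 9 members at or above 20 CPM were lower in Ter119, as were most genes at that level. The median log2 ratio was -0.69 over these members and -0.19 over all genes. H2-Aa had a ratio of 0.620 (0.595 to 0.646), Cd74 0.709 (0.690 to 0.728) and H2-DMa 0.600 (0.535 to 0.672). Only H2-DMb2 was at least 2-fold lower (0.340, 0.173 to 0.626, from 49 and 14 UMIs), against 3.57% of all genes in this gate. H2-Oa (0.783, 0.453 to 1.33) turned higher when each cell was given equal weight, at a log2 ratio of 0.44. Single monocytes were split, with 10 or more thinned class II UMIs in 38.2% (32.1 to 44.6%) of saline and 32.7% (29.3 to 36.3%) of Ter119 cells, and none in 10.6% and 26.9%.

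Within the gate, cells were split by a UMI of Ly6c2, which marks classical monocytes, and of Ace or Treml4, which mark non-classical ones. In cells with Ly6c2 alone (47 and 180), H2-Aa was 4323 CPM (4121 to 4533) in saline and 1365 (1251 to 1485) in Ter119, H2-DMa 748 and 270, and Ciita 96.1 (68.0 to 132) and 25.5 (12.2 to 46.8). In cells with Ace or Treml4 alone (85 and 256), H2-Aa was 2993 (2839 to 3152) and 2523 (2384 to 2668), H2-DMa 287 (241 to 339) and 285 (240 to 337), and Ciita 25.3 and 26.7. The Ly6c2 cells thus stood above the Ace or Treml4 cells in saline and below them in Ter119 for H2-Aa, with 1 mouse each and no test. In cells with both kinds of marker (89 and 138), H2-Aa was 3384 and 1097. Median depths were 8422 and 1907 UMIs for Ly6c2 alone and 4379 and 1723 for Ace or Treml4 alone, and the part of depth in this split was not tested.

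The Ter119 monocyte gate was led in part by Elane and Prtn3, genes of myeloid progenitors. The 25 Ter119 cells with Elane, Prtn3 or Mpo had H2-Aa at 48.1 CPM (15.6 to 112), and 7 such saline cells had 284 (176 to 435). Without them, H2-Aa in the gate was 3740 in saline and 2391 in Ter119. Gated monocytes with Cd209a, a lectin of monocyte-derived and conventional type 2 dendritic cells (9 and 30), had H2-Aa at 9221 and 7372, near the dendritic level. These 2 subsets were added after the data had been seen.

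Dendritic cells held the family at its highest level with the smallest median difference between libraries of the 5 gates. All 10 members were lower in Ter119, as were most genes at or above 20 CPM. The median log2 ratio was -0.46 over the members and -0.13 over all genes. Cd74 had a ratio of 0.833 (0.815 to 0.852), H2-Aa 0.749 (0.724 to 0.774) and Ciita 0.826 (0.624 to 1.09). H2-DMb1 had a ratio of 0.897 (0.787 to 1.02), and its interval, like that of Ciita, includes 1. H2-Ob alone was at least 2-fold lower (0.473, 0.353 to 0.626; 214 and 101 CPM), where 6.20% of all genes were, and 0 members were under TMM scaling. H2-Oa followed at 0.558 (0.451 to 0.686). A classical chain was found in 98.2% of thinned cells in both libraries.

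The dendritic gate was not of 1 kind, and its makeup by unthinned UMIs of single genes differed between the libraries. Median depths of the gate were 9265.5 UMIs in saline and 2640 in Ter119, and the part of depth in this makeup was not tested. Cells with Xcr1 or Clec9a alone, the mark of type 1 dendritic cells, numbered 7 of 112 in saline and 55 of 219 in Ter119. Those with Cd209a or Mgl2 alone numbered 71 and 106, and those with Ccr7 or Fscn1 alone, genes of mature migratory dendritic cells, 11 and 31. Cells with several of these kinds of marker or with none numbered 23 and 27. H2-Aa was 8243 and 7067 CPM in the first, 11510 and 8811 in the second and 5643 (5126 to 6200) and 5740 (5202 to 6317) in the third. In the third kind H2-DMa was low, at 117 (53.4 to 222) and 96.1 (38.6 to 198), against 936 (864 to 1012) and 713 (617 to 819) in the second and 929 and 755 in the first. H2-DMb1 was 77.8 and 110 in the third kind against 647 and 597 in the second. Ciita was 77.8 (28.6 to 169) and 27.5 (3.33 to 99.2) in the third kind, from 6 and 2 UMIs, against 179 and 152 in the second. H2-DMb2 did not share this order, at 51.9 and 137 in the third kind (4 and 10 UMIs), 58.7 and 105 in the first and 370 and 250 in the second. H2-DMa and H2-DMb1 were thus low in the third kind in both libraries, from 6 to 9 UMIs each.

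**Figure D5:**
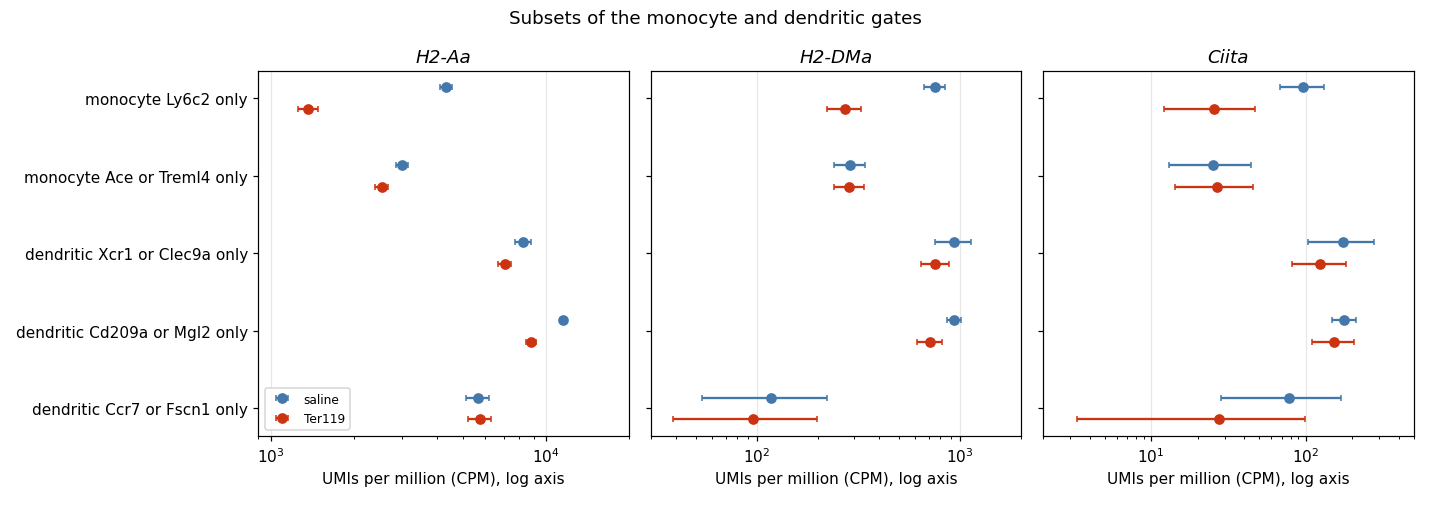
The x axes give CPM on a log axis for H2-Aa, H2-DMa and Ciita in cells of the monocyte and dendritic gates that carry a UMI of the genes named at the left and of no other kind, with saline in blue, Ter119 in red and 95% Poisson intervals. The Ly6c2 cells show the widest gap (H2-Aa 4323 and 1365), and cells with Ccr7 or Fscn1 have H2-DMa at 117 and 96.1 CPM, below the other kinds of dendritic cell.

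B cells were few (64 and 49), and all 10 members were lower in Ter119, as were most genes at or above 20 CPM. The median log2 ratio was -0.90 over the members and -0.17 over all genes. Of the 10, 4 were at least 2-fold lower, where 18.8% of all genes were. These were Ciita at 0.234 (0.0269 to 0.935, from 26 and 2 UMIs), H2-Eb1 at 0.403 (0.333 to 0.484), H2-Oa at 0.408 (0.196 to 0.770) and H2-DMa at 0.487 (0.303 to 0.753). H2-Aa was at 0.539 (0.466 to 0.620) and Cd74 at 0.543 (0.5003 to 0.588). H2-DMb1 and H2-Ob had intervals that include 1. Cells with 10 or more thinned class II UMIs made up 95.3% in saline and 63.3% in Ter119. The 11 B markers had a median log2 ratio of -0.90 as well, with 3 of them at least 2-fold lower, and the median B marker share per cell was 116 UMIs per 10000 in saline and 65.4 in Ter119. Jchain, a gene of antibody-secreting cells, stood at 43.0 CPM in saline and 1782 in Ter119, while Mzb1 and Derl3, also on the plasma cell list, stood at 1013 and 349 and at 25.8 and 17.5. The part of these markers in the result was not tested.

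In endothelial cells the chains were no higher than in neutrophils. H2-Aa was 0.663 times the neutrophil level in saline (0.550 to 0.804) and 0.515 times in Ter119 (0.415 to 0.639). After thinning, the share with a classical chain was 40.7% in saline (36.7 to 44.8%) and 13.3% in Ter119 (11.3 to 15.6%), with neutrophils at 52.1% and 12.5%. These shares lay at or near those of neutrophils at unequal depths, and no expression is read from them. The ratio of H2-Aa was 0.514 (0.429 to 0.613), and 0 of 6 members at or above 20 CPM were at least 2-fold lower, where 4.59% of all genes were, with none higher. H2-DMa had a ratio of 1.08 (0.699 to 1.66) and H2-DMb1 1.16 (0.742 to 1.80). The direction was not stable. The log2 ratio of H2-Aa was 0.34 with at least 2000 UMIs, which left 130 Ter119 cells, and -2.63 in clusters, where 6 members were at least 2-fold lower. That of H2-DMb1 ran from -1.39 in clusters to 2.61 with at most 5% mitochondrial UMIs, which left 44 saline cells, and that of H2-DMa from -1.90 to 1.93.

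The cells that no gate took, 547 in saline and 2618 in Ter119, held 5.46% and 32.6% of all class II UMIs of their libraries. Their summed level over the 10 genes was 16030 CPM in saline and 7928 in Ter119, and their median Kupffer marker share 128 and 113 per 10000. The Kupffer gate held 81.6% of the class II UMIs of saline and 31.7% of those of Ter119, and the dendritic gate 6.47% and 13.9%. Over all kept cells the family stood at 10790 and 3972 CPM.

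The genes whose level was most like the mean of the 3 chains, by Pearson correlation of log2(CPM + 20) over the 5 gates of both libraries (10 points that share libraries and depth), were Mob3a (0.963), Dapp1, a B cell signalling adaptor (0.962), Rps29 (0.952), Pik3cg, a leukocyte lipid kinase (0.949), and Rel, an NF-kappa-B subunit (0.948). They were taken from 5675 genes at or above 50 CPM in 1 of the points. Rel was 158 and 122 CPM in dendritic cells and 65.1 and 35.0 in Kupffer cells. Among members, the correlation was 0.991 for Cd74, 0.969 for H2-DMa, 0.919 for Ciita, 0.898 for H2-DMb1, 0.794 for H2-Oa, 0.716 for H2-DMb2 and 0.656 for H2-Ob. Ranked this way, the genes of DO and the second DM beta gene stood furthest from the chains.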

How the data were processed

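The authors deposited 1 matrix per library, which holds unnormalized UMI counts of genes by barcodes. Its header names Cell Ranger 6.0.2, while the submitters' processing notes name Cell Ranger 4.0.0 and GRCm38.p6. The members and gene lists were chosen with earlier results of these data known. Barcodes with at least 1000 UMIs, 500 genes and at most 15% mitochondrial UMIs were kept. A cell entered a gate with at least 3 of its markers (Kupffer 4) and, per 10000 UMIs, 150 for Kupffer, 30 monocyte, 10 dendritic, 20 B, 80 endothelial, 10 T or NK, 300 neutrophil and 1000 erythroid marker UMIs. The other gates required under 100 Kupffer marker UMIs. Cells in several of the monocyte, dendritic, B, endothelial, T or NK and neutrophil gates were left out. A Kupffer cell could not reach the marker limits of any of these, with 1 marker more for monocyte and dendritic. Cells that also met the erythroid limits stayed in their other gate. Markers were listed beforehand, but these limits were set after the marker shares had been looked at, and member levels had been printed before they were kept. No doublet caller was used. Counts were summed per gate and library and given as CPM, with exact Poisson, conditional binomial or Clopper-Pearson 95% intervals. Genes at or above 20 CPM were called at 2-fold. Named pathway genes were the 6 lowest and 2 highest ratios plus 7 preset genes, and 1 pathway gene that is counted is not reported here. Gene overlaps came from GENCODE vM21. Alternatives included TMM (edgeR 4.0.16) and leiden clusters (scanpy 1.11.5) made without the members. Calculations were tested on simulated data.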

Additional observations from a re-analysis of the deposited data

How the results depend on the processing

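No paired analysis was possible because each group has 1 library. The Kupffer count of members at least 2-fold lower (5) lay between 4 and 7 in all settings run, and no member's ratio in that gate changed sign. Other pathway genes (6) were 3 under TMM, 3 under median-of-ratios and 11 with no filter on low values. The dendritic count (1) was 0 under TMM and under median-of-ratios. The monocyte count (1) was 0 at 100 CPM, in the stricter gate, in clusters and as a mean over cells, which turned H2-Oa to 0.44. The endothelial count (0) was 4 in the stricter gate, 6 in clusters, 3 as a mean over cells and 3 in cells with under 500 erythroid UMIs per 10000 (a setting chosen after seeing the data, like the limits of 250 and of 50% here and the removal of Elane, Prtn3 or Mpo cells). Endothelial log2 ratios with at least 2000 UMIs were 0.34 for H2-Aa, 0.50 for H2-Ab1, 0.44 for H2-Eb1 and 0.53 for Cd74. At most 5% mitochondrial UMIs gave 0.67 for H2-Ab1. Clusters gave -1.90 for H2-DMa and -1.39 for H2-DMb1, and means over cells -0.23 and -0.17, while at most 5% mitochondrial UMIs gave 1.93 and 2.61. The cause was not tested. The saline share with a classical chain (93.7%) was 94.3% in the stricter gate (1289 cells), 81.4% thinned to 500 UMIs, 98.5% to 2000 and 99.4% unthinned. The Ter119 share (34.1%) was 21.4%, 47.6% and 59.6% for these depths, 37.0% with at most 5% mitochondrial UMIs, 32.7% in clusters, 33.0% in clusters named by over 50% of cells and 32.3% with a Kupffer limit of 250 per 10000. Clusters were first named by over 50% of cells, which left no dendritic cluster and 5 Ter119 monocytes. They were then named by the leading gate at 25% or more. Settings with under 20 cells of a gate in a library gave no value, such as B cells with at most 5% mitochondrial UMIs (4 saline cells) or in the stricter gate (15). Most Kupffer clusters held cells of nearly 1 library. Depth limits the members under 20 CPM and the B gate.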
